A study of Mus musculus with 6 samples.

Results

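The forkhead transcription factor family was examined in leukaemic mouse B cells with and without gamma-catenin. Members were all genes whose symbol is Fox, a subfamily letter from a to s and a number, on probe sets that the array annotation ties to exactly 1 gene, and a gene with more than 1 probe set was represented by the brightest. This gave 44 genes on 46 probe sets, out of 19938 genes on 21789 probe sets. The arrays also carry Foxl2os, a non-coding transcript that shares the naming pattern, and it is counted among the 44. The rule uses names and mean signal and no difference between the groups.

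The study asked which signals of BCR-ABL1-driven B-cell acute lymphoblastic leukaemia depend on gamma-catenin (plakoglobin, the product of Jup), an adhesion protein of desmosomes and adherens junctions related to beta-catenin. Fetal liver cells from Jup-/- or Jup+/+ embryos (both CD45.2+, C57BL/6) repopulated CD45.1+ mice, whose marrow was later transduced with a retrovirus for BCR-ABL1, the oncogenic kinase made by the Philadelphia translocation, linked to GFP through an IRES. Lethally irradiated CD45.1+ recipients of that marrow were the source, at day 21, of the B cells sorted as GFP+, B220+, BP-1+ and CD45.2+, with 3 samples from Jup-/- (KO) and 3 from Jup+/+ (WT) cells, 1 array each. Both groups therefore carry BCR-ABL1, and Jup was missing in KO donor cells from the embryo on. The labels call the samples biological replicates and give neither the animals or pools behind them nor ages, so the p-values measure the spread between these samples.

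Forkhead factors bind DNA through a winged-helix domain of a shared fold, and subfamilies are lettered by the sequence of that domain. In B-cell precursors Foxo1 drives the recombinase genes and the interleukin-7 receptor gene, Foxp1 is needed for early B-cell development, and FOXO proteins leave the nucleus when AKT, downstream of PI3 kinase, phosphorylates them. BCR-ABL1 is known to activate the PI3 kinase pathway, and Foxm1 is a driver of the genes of G2 and mitosis in dividing cells.

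All values are log2 signals after RMA, a background correction, normalisation and probe summary. The Jup signals were 7.04, 7.06 and 7.27 in KO replicates 1, 2 and 3 and 8.04, 7.62 and 8.51 in WT replicates 1, 2 and 3. Jup was thus lower on every KO array than on any WT array (log2 difference KO minus WT -0.93, SE 0.20), without passing the threshold (limma adjusted p = 0.171), and where its probes lie relative to the deleted part was not examined. Array medians were 7.53 to 7.61. WT replicate 2 stood apart in sex-linked genes: Xist read 6.20 there and 13.03 to 13.38 on the other 5 arrays, while the Y-linked Uty read 10.09 there. Of 16 fixed B-lineage markers 15 were measured and 0 lay below the array-wide median of 7.58; Enpep, which encodes BP-1, had a mean of 12.48 and Cd79a 13.69. The mean over these markers was 12.10 to 12.22 on KO arrays and 12.05 to 12.12 on WT arrays, but single markers moved in opposite directions. In KO 9 were higher and 6 lower, and 0 passed the adjusted threshold. At an unadjusted p under 0.05 in limma, Rag1 (0.50), Rag2 (0.42) and Cd93 (0.22) were higher and Enpep (-0.23) was lower. Of all probe sets 4.48% were higher and 4.73% lower at that p. Enpep was lower on every KO array than on any WT array. Myeloid markers differed between the groups: 13 of 15 were higher in KO, 3 of them (Mpo, Elane and Ctsg) past the adjusted threshold, and their signals summed to 126.9 to 128.2 on KO and 114.3 to 121.7 on WT arrays. Erythroid markers were split, with 3 of the 8 measured (11 fixed) higher and 5 lower in KO. Car1 was higher past the adjusted threshold (0.74, limma adjusted p = 0.0307), and Car2 was lower (-0.38, limma unadjusted p = 0.0422). Over all 21789 probe sets 9641 were higher in KO, 11 of them past the adjusted threshold.

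The forkhead genes covered most of the signal range of the array, and the brightest were Foxo1, Foxp1 and Foxm1. Of the 44 members 19 lay above the median of all tested probe sets and 25 below it. The mean signal was 9 or more for 11 members, all of subfamilies J, K, M, N, O and P, and 33 were dimmer. Probe sets differ in how strongly they hybridise, so the order below is an order of array signal and not of transcript number, and a dim signal is not shown to be expression. Neighbours in the order mostly could not be separated: for 38 of 43 neighbouring pairs the 6 arrays of one gene overlapped those of the next. The 5 gaps without overlap followed Foxp1 (1.23 between means), Foxm1 (0.38), Foxk2 (0.51), Foxn2 (1.07) and Foxr1 (0.71).

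**Figure D1:**
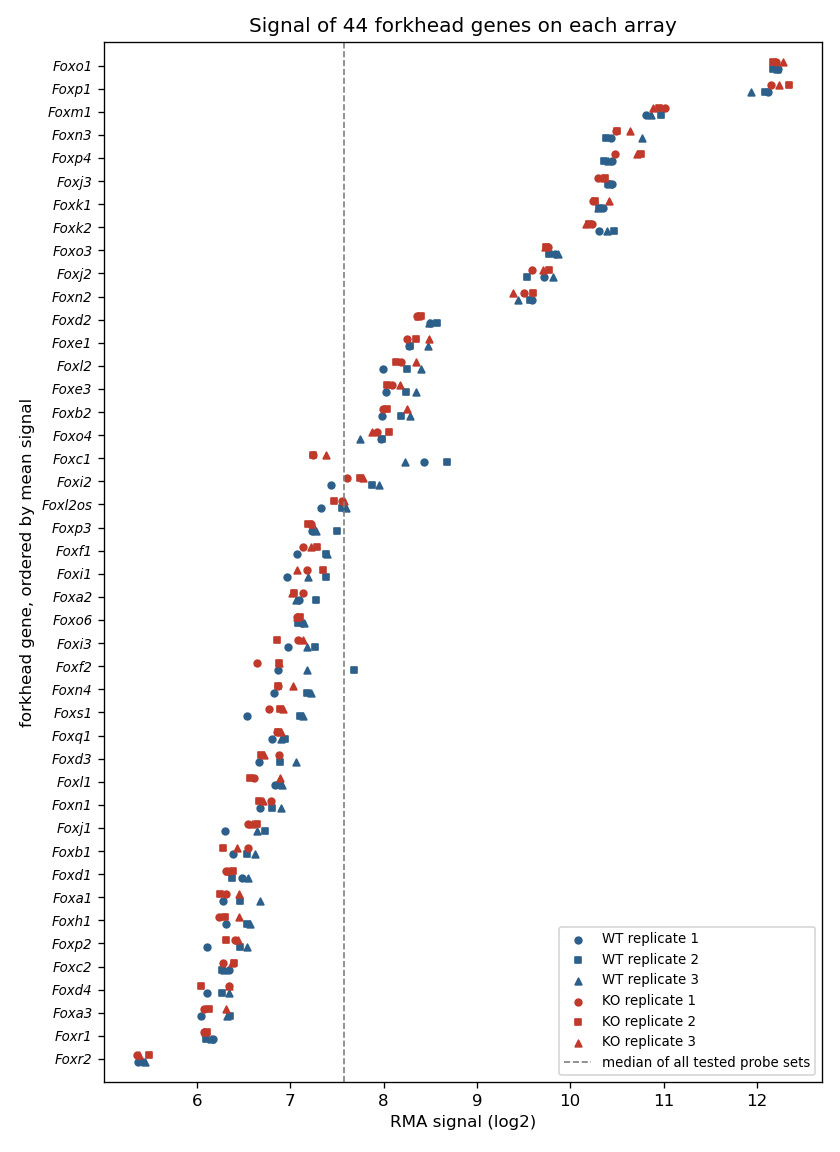
RMA signal (log2, horizontal axis) of each of the 44 forkhead genes on each of the 6 arrays, ordered by mean; blue marks are WT and red marks KO, with circle, square and triangle for replicates 1, 2 and 3, and the dashed line is the median of all tested probe sets (7.58). Foxo1 and Foxp1 stand above 11.9 on all arrays, 11 genes lie at a mean of 9 or more, and Foxc1 is the gene whose red and blue marks are farthest apart.

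Foxo1, the FOXO factor of early B-cell differentiation, had the highest signal. It read 12.21, 12.18 and 12.28 in KO and 12.22, 12.18 and 12.21 in WT, which places its mean at percentile 97.5 of all probe sets. The 2 groups overlapped almost fully. The difference was 0.02 with a 95% interval of -0.15 to 0.18 (limma adjusted p = 0.973), so a change beyond 0.18 in either direction lies outside the interval.

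Foxo3, a FOXO factor tied to apoptosis and quiescence, was the other bright member of the subfamily. It read 9.76, 9.74 and 9.73 in KO and 9.84, 9.77 and 9.87 in WT. Every KO array lay below every WT array, but by little: the difference was -0.08 (95% interval -0.24 to 0.08, limma adjusted p = 0.811). Foxo4, an X-linked FOXO gene, lay near the median, at 7.93, 8.06 and 7.87 in KO and 7.97, 7.98 and 7.74 in WT. Its groups overlapped (difference 0.06, limma adjusted p = 0.930). Foxo6, the FOXO gene known mainly from brain, read 7.07, 7.11 and 7.07 in KO and 7.13, 7.08 and 7.14 in WT, below the median of the array. No FOXO gene passed either threshold.

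Foxp1, a repressor needed for the passage from pro-B to pre-B cells, was nearly as bright as Foxo1. It read 12.16, 12.35 and 12.24 in KO and 12.12, 12.09 and 11.94 in WT. All KO arrays lay above all WT arrays, the closest being KO replicate 1 and WT replicate 1. The difference was 0.20 (SE 0.09, 1.15-fold; unadjusted p = 0.0495, limma adjusted p = 0.542). Foxp4, a closely related repressor that can pair with Foxp1, read 10.48, 10.76 and 10.72 in KO and 10.45, 10.36 and 10.40 in WT. Here too the KO arrays were all higher, with KO replicate 1 close to the WT arrays. The difference was 0.25 (SE 0.09, 1.19-fold; unadjusted p = 0.0281, limma adjusted p = 0.460).

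The other FOXP genes were dim. Foxp3, the factor that defines regulatory T cells, read 7.23, 7.19 and 7.23 in KO and 7.23, 7.50 and 7.27 in WT, with the highest value in WT replicate 2. Its difference was -0.12 (limma adjusted p = 0.766). The T and NK markers, 10 of 13 of them below the median, summed to 90.7 to 92.6 on KO and 90.8 to 92.4 on WT arrays, and Cd3e and Cd4 had means of 7.33 and 6.63. Cd2 and Il2ra were bright, at means of 11.88 and 11.47. The sums cover opposite moves: at an unadjusted p under 0.05 in limma, Klrb1c (-0.79) and Cd8a (-0.22) were lower in KO and Il2ra (0.43) higher. None passed the adjusted threshold. Of all probe sets 4.73% were lower and 4.48% higher at that unadjusted p. Foxp2, known from brain and speech, read 6.41, 6.31 and 6.44 in KO and 6.11, 6.46 and 6.54 in WT, and its groups overlapped.

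Foxm1, the mitotic forkhead factor, ranked 3 by signal. It read 11.02, 10.95 and 10.89 in KO and 10.81, 10.97 and 10.87 in WT. The groups overlapped, and the difference of 0.07 had a 95% interval of -0.12 to 0.25 (limma adjusted p = 0.887).

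Subfamilies J, K and N supplied the rest of the 10 highest signals. Foxk1 and Foxk2 are paired repressors of autophagy genes. Foxk1 read 10.25, 10.26 and 10.42 in KO and 10.35, 10.31 and 10.30 in WT, with overlap. Foxk2 read 10.24, 10.20 and 10.17 in KO and 10.30, 10.47 and 10.39 in WT, all KO arrays below all WT arrays. The Foxk2 difference was -0.19 (SE 0.08, 1.14-fold lower; unadjusted p = 0.0390, limma adjusted p = 0.507), against -0.01 for Foxk1. Whether the 2 genes differ from each other in this was not tested.

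Foxn3, a repressor linked to cell-cycle checkpoints, read 10.49, 10.50 and 10.64 in KO and 10.44, 10.38 and 10.77 in WT. A second probe set of Foxn3 was dimmer, with a mean of 10.06, and gave a difference of 0.11 against 0.01 for the brighter one, neither past a threshold. Foxj3, best known from the germ line and muscle, read 10.30, 10.38 and 10.36 in KO and 10.44, 10.40 and 10.42 in WT. The groups did not overlap, yet the difference was -0.08 (limma adjusted p = 0.823). Foxj2 read 9.59, 9.77 and 9.70 in KO and 9.72, 9.53 and 9.82 in WT, and the group means were equal to 2 decimals (9.69).

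Foxc1 was the forkhead gene that fell in KO. Foxc1 is a factor of mesenchyme, of the developing eye and of the stromal cells of bone marrow. It read 7.24, 7.25 and 7.38 in KO (mean 7.29 ± 0.08, SD, n = 3) and 8.43, 8.68 and 8.23 in WT (8.45 ± 0.23, SD, n = 3). The KO arrays lay within a narrow band and below the median of the array, and all WT arrays lay above that median. The difference was -1.15 (SE 0.12, 95% interval -1.42 to -0.89), which is 2.23-fold lower on the array scale, with an unadjusted p of 7.28e-06 and a limma adjusted p of 0.0198. Since the KO signals may lie at the background of the array, the fold need not be that of the transcript. Among the 26 probe sets past the adjusted threshold Foxc1 ranked 8 by size, and 5 among the 15 lower ones. Without KO replicate 2, KO replicate 3 or WT replicate 1 the difference was -1.13, -1.20 and -1.16 and the limma adjusted p 0.114, 0.102 and 0.0841, so the call was lost at about the same size. It was also lost when the replicate number was added to the fit as a block (-1.15, limma adjusted p = 0.0604). Over all 15 alternatives the limma adjusted p ran from 0.00524 to 0.114. Without WT replicate 2, the array that stood apart in Xist, the difference was -1.04 and the limma adjusted p 0.0208.

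Foxc1 shares a cluster on chromosome 13 with Foxq1 and Foxf2, its next 2 protein-coding neighbours on one side in the gene order of RefSeq (assembly GRCm38.p6). Foxf2, a factor of gut mesenchyme and brain pericytes, was also lower on average. It read 6.65, 6.88 and 6.88 in KO and 6.87, 7.69 and 7.18 in WT. WT replicate 1 lay among the KO arrays and WT replicate 2 well above the rest. The difference was -0.44 (SE 0.19, 1.36-fold lower; unadjusted p = 0.0431, limma adjusted p = 0.523), and without WT replicate 2 it was -0.22. Foxq1, known for its part in hair formation, had a mean of 6.88 and a difference of -0.01 (95% interval -0.18 to 0.16). Foxc2, the other member of subfamily C and a factor of lymphatic vessels, lies on chromosome 8 and had a mean of 6.33 and a difference of 0.05 (95% interval -0.12 to 0.22).

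The 250 bases before the RefSeq gene start are shown for Foxc1 (chr13:31806396-31806645) and Foxf2 (chr13:31625566-31625815), both on the plus strand of GRCm38.p6 and read 5′ to 3′, because these are the 2 forkhead genes with the largest differences and they are neighbours. Capitals mark matches on either strand to a GC box (GGGCGG) or a CCAAT box (CCAAT, which appears as ATTGG where it lies on the other strand).
Foxc1: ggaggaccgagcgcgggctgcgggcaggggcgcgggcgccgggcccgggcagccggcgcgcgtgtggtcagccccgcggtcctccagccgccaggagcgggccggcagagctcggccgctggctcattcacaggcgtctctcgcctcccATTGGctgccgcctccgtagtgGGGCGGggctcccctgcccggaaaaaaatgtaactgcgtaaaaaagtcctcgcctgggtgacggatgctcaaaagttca
Foxf2: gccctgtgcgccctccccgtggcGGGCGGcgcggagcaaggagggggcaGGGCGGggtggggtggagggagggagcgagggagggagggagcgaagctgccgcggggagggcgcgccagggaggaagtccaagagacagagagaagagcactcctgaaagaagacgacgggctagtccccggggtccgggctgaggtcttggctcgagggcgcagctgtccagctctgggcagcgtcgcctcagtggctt
Both windows were rich in G and C, at 70.8% for Foxc1 and 71.6% for Foxf2 against a median of 52.4% over 32851 promoter windows of the same length. The Foxc1 window held 29 CpG dinucleotides, more than 93.2% of windows, and the Foxf2 window 21, more than 83.7%. The Foxc1 window had 1 GC box, starting at base -79, and 1 CCAAT box on the other strand, starting at -101, while the Foxf2 window had 2 GC boxes and no CCAAT box. These motifs are common, being held by 32.7% and 33.8% of windows. The letters of a forkhead core (TGTTTAC), a TCF/LEF core (CTTTGAT) and a TATA box (TATAAA), each searched on both strands, were in neither window, and 3.17%, 3.21% and 12.4% of all windows held them. No motif match overlapped another. A match is a description of letters, and the arrays do not measure binding there.

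None of the 8 protein-coding genes measured on either side of the cluster passed the adjusted threshold in limma, which 0.119% of all probe sets passed. Going outward past Foxq1, the differences were 0.09 for Hus1b, 0.09 for Exoc2, 0.27 for Irf4 and 0.39 for Dusp22. On the other side they were -0.08 for Gmds, 0.07 for Mylk4, -0.02 for Wrnip1 and 0.47 for Serpinb1a. Of these 8 genes only Dusp22 had an unadjusted p under 0.05 (0.0191, limma adjusted p = 0.420), against 9.22% of all probe sets. All 8 were taken by position, not by value.

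Stromal and endothelial marker genes are given beside Foxc1 because Foxc1 is a known stromal gene. In bulk sorted cells, fewer cells of a type and less RNA per cell cannot be told apart. Of 15 stromal markers 11 were below the median of the array and 11 were lower in KO, and their signals summed to 95.5 to 96.3 on KO and 96.2 to 98.7 on WT arrays. For this and the endothelial list, the shares lower in KO over the array were 55.8% of all probe sets and 58.3% of those below the median. Sparc, a matrix-associated protein gene, was the stromal marker that fell: it read 7.08, 7.09 and 7.15 in KO and 8.26, 7.92 and 8.02 in WT (difference -0.96, limma adjusted p = 0.0198). Acta2, smooth muscle actin, had a difference of -0.69 (limma adjusted p = 0.0726). The other stromal markers differed by -0.13 (Ebf3) to 0.15 (Cxcl12), none with an unadjusted p under 0.05, and many of them are so dim, as Lepr at a mean of 4.64, that a difference could be hidden. Of 12 endothelial markers 10 were below the median and 9 were lower in KO, with a median difference of -0.05, and their signals summed to 85.0 to 85.9 on KO and 84.5 to 87.9 on WT arrays. Eng, a TGF-beta co-receptor gene, fell (difference -0.82, limma adjusted p = 0.0307), and the others differed by -0.27 (Emcn) to 0.23 (Pecam1), none with an unadjusted p under 0.05. Eng and Pecam1, at means of 10.61 and 10.72, were bright, unlike the 10 markers below the median. Which cells gave the Eng signal was not tested. The part of these cells and of the myeloid markers in the Foxc1 difference was not tested.

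**Figure D2:**
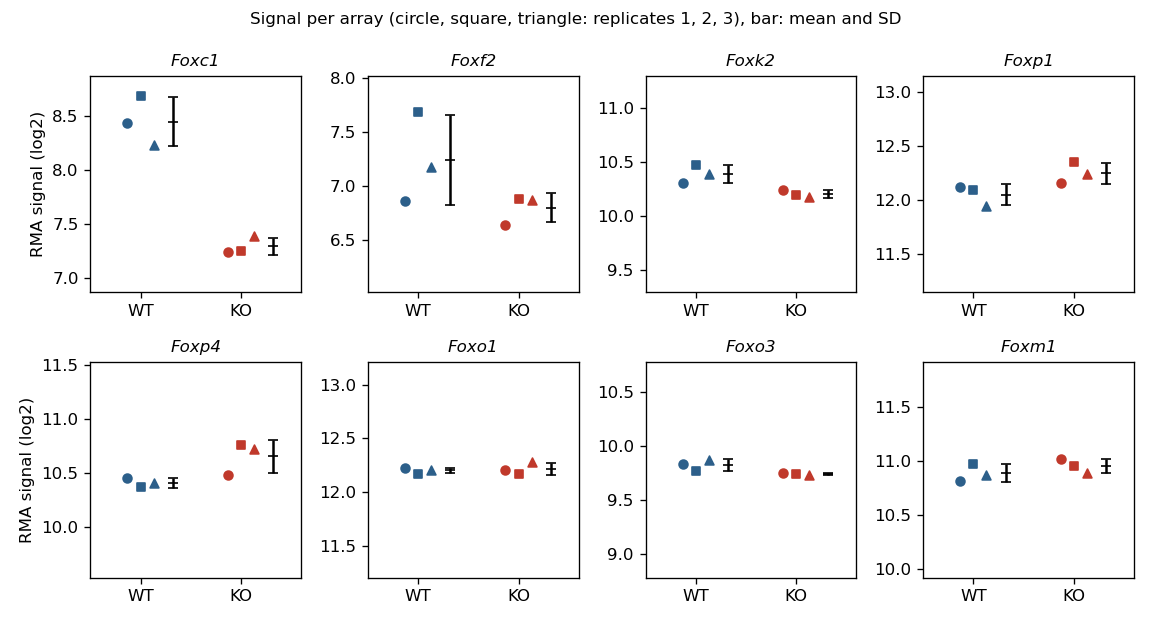
RMA signal (log2, vertical axis, which does not start at 0 and has its own range in each panel) of 8 forkhead genes, with blue marks for WT and red for KO arrays, circle, square and triangle for replicates 1, 2 and 3, and a bar for the mean and SD of each group (n = 3). Foxc1 is separated by 1.15 between means, Foxf2 has a wide WT group with 1 array among the KO arrays, and Foxo1 and Foxm1 overlap.

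Counted over the family, Foxc1 was the 1 member of 44 (2.27%) past the adjusted threshold, against 0.119% of all 21789 probe sets, which is 26. At an unadjusted p under 0.05 there were 5 members (11.4%), namely Foxc1, Foxf2, Foxk2, Foxp1 and Foxp4, against 9.22% of all probe sets. The 2 higher ones, both FOXP genes, made up 4.55% of members, against 4.48% of all. The 3 lower ones made up 6.82%, against 4.73% of all. The arrays of both groups were fully separated for 7 members (15.9%), against 14% of all probe sets. Apart from the single adjusted call, these shares lie near those of the array as a whole, and the count of 5 fell to 1 when KO replicate 2, WT replicate 2 or WT replicate 3 was left out, to 2 without KO replicate 3 and to 3 without KO replicate 1, and rose to 10 without WT replicate 1. The 7 members without overlap were Foxp1 and Foxp4, higher in KO, and Foxc1, Foxk2, Foxj3, Foxo3 and Foxd2, lower in KO.

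**Figure D3:**
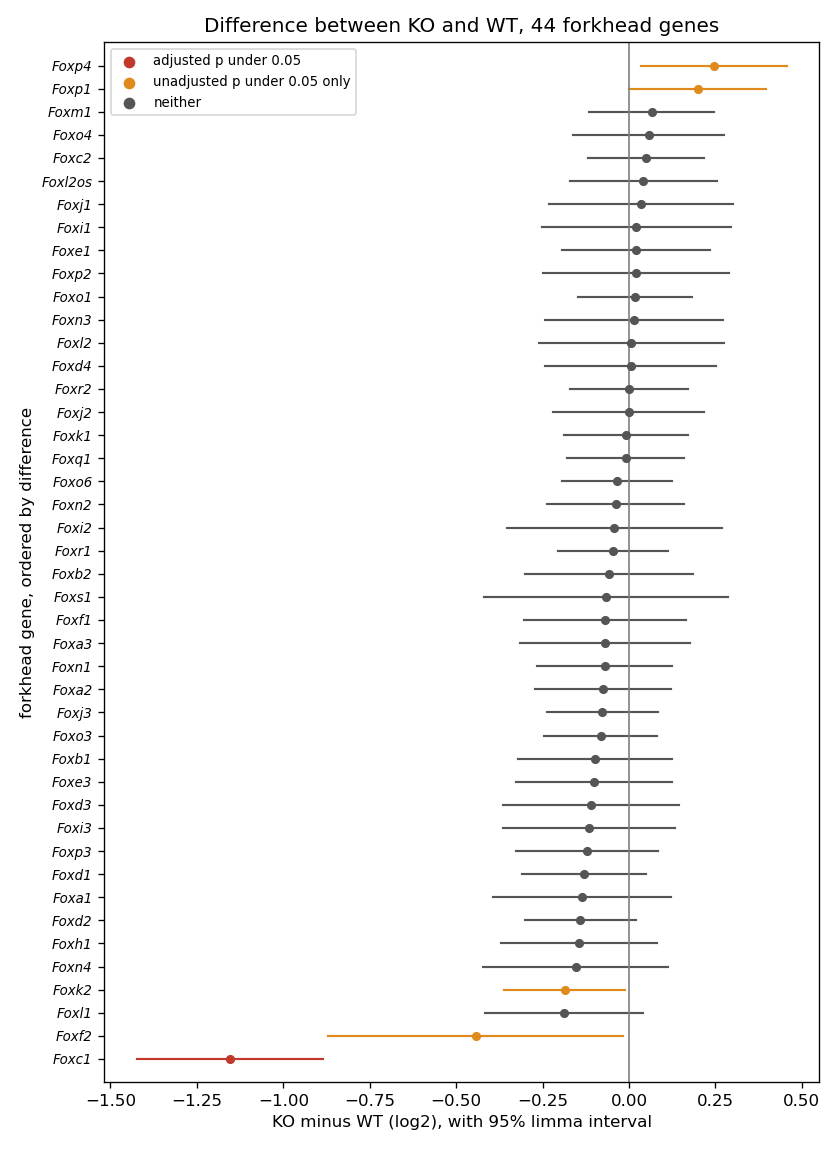
Difference between KO and WT (log2, horizontal axis) with its 95% limma interval for the 44 forkhead genes, ordered by the difference with its sign. Red marks an adjusted p under 0.05, orange an unadjusted p under 0.05 only, and grey neither. Foxc1 stands at -1.15, the next largest size is 0.44 (Foxf2), and 3 of the 44 genes (Foxc1, Foxf2 and Foxp4) have a size over 0.2.

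Most other members had small differences that this number of arrays bounds rather than resolves. Without Foxc1 the median size was 0.07, and the 95% intervals reached 0.16 to 0.43 to either side of the estimate. By subfamily, the 3 FOXA genes, the pioneer factors of liver and endoderm, had means of 6.20 to 7.10 and differences of -0.14 to -0.07. The 4 FOXD genes had means of 6.24 to 8.45, the highest being Foxd2, and differences of -0.14 to 0.00. The 2 FOXE genes had means of 8.15 and 8.35, the brighter being Foxe1 of the thyroid, and differences of -0.10 and 0.02. The 3 FOXI genes, which include factors of the inner ear and kidney, had means of 7.08 to 7.73 and differences of -0.12 to 0.02. The 3 FOXL symbols, led by Foxl2 of the ovary at a mean of 8.22, had differences of -0.19 to 0.04. The 2 FOXB genes, led by Foxb2 at 8.12, had differences of -0.10 and -0.06. Foxh1, a SMAD partner in nodal signalling, had a mean of 6.40 and a difference of -0.14, Foxs1 a mean of 6.89 and a difference of -0.07. Foxf1, the FOXF gene of lung and gut mesenchyme, had a mean of 7.25 and a difference of -0.07, and its second, dimmer probe set a difference of -0.01. The FOXR genes had means of 6.11 and 5.40, the latter, Foxr2, being the lowest of the family. Over all 4 FOXN genes the differences were -0.15 to 0.01, and over all 3 FOXJ genes -0.08 to 0.03. None of these genes passed either threshold.

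Lower values in KO outnumbered higher ones, by a margin that depended on which arrays were used. Of the 44 members 29 (65.9%) were lower in KO, with a median difference of -0.05, against 55.8% and -0.02 over all probe sets. Among the 25 members below the median of the array 18 (72%) were lower, against 58.3% of all probe sets below it, and among the 19 above it 11 were lower. The dim members deviated from their WT mean by an average of -0.09, -0.10 and -0.04 on KO replicates 1 to 3, and by -0.15, 0.08 and 0.07 on WT replicates 1 to 3. WT replicate 1 was thus the lowest array of all 6 for these members, and for 20 of the 25 it was the lowest of the WT arrays. All probe sets below the median showed the same order among the WT arrays, at -0.08, 0.05 and 0.04, with smaller sizes. Without WT replicate 1, 36 of 44 members were lower, among them 24 of the 25 dim ones, against 71% of all dim probe sets, and without WT replicate 3 it was 26 of 44. WT arrays had the larger SD for 31 of 44 members (70.5%) and for 61% of all probe sets.

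**Figure D4:**
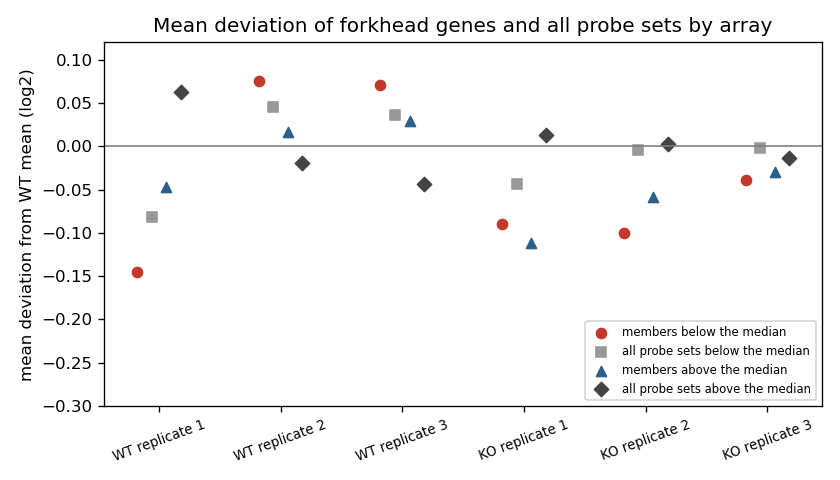
Mean deviation from the WT mean (log2, vertical axis) on each of the 6 arrays, for the 25 forkhead genes below the median signal of the array (red circles), all probe sets below it (light grey squares), the 19 forkhead genes above it (blue triangles) and all probe sets above it (dark diamonds). Dim forkhead genes stand at -0.15 on WT replicate 1 and at 0.08 and 0.07 on the other WT arrays, with the KO arrays between -0.10 and -0.04.

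Genes downstream of FOXO proteins were mostly higher in KO, while no FOXO gene passed either threshold. Of 26 listed FOXO targets 24 were measured, 18 of them higher and 6 lower, with a median difference of 0.18, the array-wide median being -0.02. Of these, 10 were higher at an unadjusted p under 0.05 (41.7%, against 4.48% of all probe sets), 1 was lower, and 0 passed the limma adjusted threshold. All 24 lay above the median of the array, where such values were more common. There 725 of 10895 probe sets were higher at that p, against 252 of 10894 below the median. Klf2, a factor of lymphocyte quiescence and homing, read 9.50, 10.04 and 10.09 in KO and 9.40, 8.76 and 9.03 in WT (difference 0.81, SE 0.19, limma adjusted p = 0.230). Ccr7, a homing receptor gene, read 9.83, 10.05 and 10.04 in KO and 9.71, 9.49 and 9.47 in WT (difference 0.42, SE 0.10, limma adjusted p = 0.230). In both genes KO replicate 1 and WT replicate 1 were the closest pair across the groups. The other 8 with higher values, named after these were seen, were the recombinase genes Rag1 and Rag2, the cell-cycle brakes Cdkn1b and Ccng2, the egress receptor gene S1pr1, the repressor gene Bcl6, the stress gene Gadd45a and the ubiquitin ligase gene Fbxo32, at 0.23 to 0.70. Bcl2l11, which encodes the pro-apoptotic protein BIM, went the other way, at 10.70, 10.65 and 10.48 in KO and 11.09, 11.03 and 10.68 in WT (difference -0.32, SE 0.12, limma adjusted p = 0.452). Irs2, an adaptor of insulin signalling, was next lowest at -0.13. Among the 10 higher targets, KO and WT arrays overlapped for Rag1, S1pr1 and Bcl6. S1pr1 read 9.04 on both KO replicate 1 and WT replicate 1, and 9.22 on WT replicate 2. Rag1 and Rag2 are also among the B-lineage markers given above.

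Averaged over the 24 targets, the deviations from the WT mean were 0.11, 0.27 and 0.25 on KO replicates 1 to 3 and 0.13, -0.07 and -0.07 on WT replicates 1 to 3. KO replicate 1 thus lay slightly below WT replicate 1. The count of 10 was 8 without WT replicate 2 and ranged from 7 to 12 when each array was left out in turn. A shorter list of such targets was already known to be higher in these samples when this list was drawn up, so the count is a description of the same pattern. The myeloid markers given above were higher in the same arrays, and their part in these values was not tested.

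Genes that act on FOXO proteins showed no such lean. Of 31 listed 29 were measured, 13 higher and 16 lower (55.2%, against 55.8% of all probe sets), with a median of -0.03. At an unadjusted p under 0.05 in limma there were 1 higher (3.45%) and 2 of 29 lower. Of all probe sets 4.48% were higher and 4.73% lower at that p. In this list 0 passed the limma adjusted threshold. The highest by moderated t, the difference set against its error, were 2 subunits of PI3 kinase, Pik3r2 at 0.24 (SE 0.08, limma adjusted p = 0.422) and Pik3ca at 0.16 (limma adjusted p = 0.689). The lowest by moderated t were Skp2, which marks Foxo1 for degradation, at -0.20 (limma adjusted p = 0.438) and Ywhah, a 14-3-3 protein of the kind that holds phosphorylated FOXO in the cytoplasm, at -0.16 (limma adjusted p = 0.537).

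Genes activated by Foxm1 in G2 and mitosis stayed within a narrow band around 0. Of 20 listed 19 were measured, 8 higher and 11 lower, with a median of -0.02. With limma 0 passed the adjusted threshold and 0 had an unadjusted p under 0.05, against 0.119% and 9.22% of all probe sets. The differences ran from -0.18 for Aurka, a spindle kinase (95% interval -0.38 to 0.02), to 0.11 for Cdc25b, a phosphatase of mitotic entry (95% interval -0.08 to 0.30). Plk1, the polo-like kinase, differed by -0.10 and Cenpf, a kinetochore protein gene, by 0.11.

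**Figure D5:**
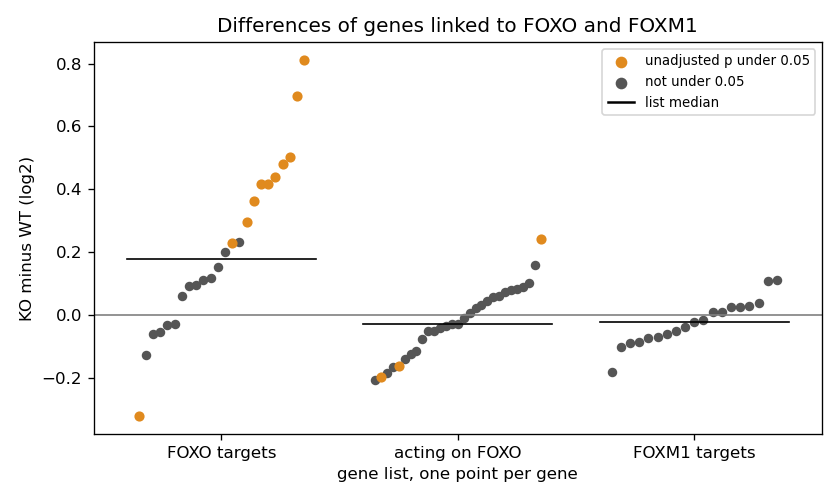
Difference between KO and WT (log2, vertical axis) of each measured gene in the 3 lists, 24 FOXO targets, 29 genes acting on FOXO proteins and 19 FOXM1 targets, with orange points at an unadjusted p under 0.05, grey points otherwise and a bar at the list median. The FOXO targets reach from -0.32 to 0.81 around a median of 0.18, and the other lists lie between -0.21 and 0.24.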

How the data were processed

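Each of 6 total RNA samples of sorted B cells was amplified, given a biotin label and put on 1 single-colour Affymetrix array, as the labels describe. The authors deposited log2 values, judging by the range; the submitters' processing notes name RMA and Expression Console 1.1. RMA removes shifts common to a whole array and compresses differences of dim transcripts; its options and annotation are not given in the sources used here. Of 35556 rows, 21789 with exactly 1 gene symbol in the platform annotation were tested, 1621 had several symbols and 12146 are unnamed here. All 44 member symbols matched RefSeq (GRCm38.p6) by gene ID, and promoter sequences are RefSeq's of that build. No label or file header used here names the genome build of the array annotation.

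The groups were contrasted by limma 3.58.1 under R 4.3.3 (functions lmFit and eBayes, prior degrees of freedom 4.33), with no covariate or filter, two-sided, and Benjamini-Hochberg adjustment over the 21789 probe sets at 0.05. Differences are KO minus WT; standard errors and 95% intervals are the moderated ones. The fit was tested on simulated data. The number of arrays limits the precision. The members and lists were chosen with earlier results of these data known. Named with values were members past either threshold, the 10 highest by mean and subfamilies O, P and M. So was the brightest member of each other subfamily except A, I and R. From each list the 2 highest and 2 lowest genes by moderated t were named. Foxc2 and Foxr2 were named after their values were seen. As alternatives, dim probe sets were dropped, all rows were tested, probe sets were reduced to 1 per gene or averaged, and each array was left out; others were a trended robust prior, array weights, quantile normalization, centring, replicate blocks and a threshold of 0.1.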

Additional observations from a re-analysis of the deposited data

How the results depend on the processing

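Foxc1 was lower in KO under all 15 alternatives tried, at -1.27 to -1.04 on the log2 scale, with -1.27 and -1.04 also the range when each array was left out. It missed the limma adjusted threshold in 4 of them: with the replicate number as a block (-1.15, adjusted p = 0.0604) and without KO replicate 2, KO replicate 3 or WT replicate 1; adjusted p over all 15 ran from 0.00524 to 0.114. The count of 26 probe sets past the adjusted threshold (11 higher, 15 lower) was 58 at a threshold of 0.1 (25 higher, 33 lower), 69 over all rows of the table (10 higher, 59 lower), 40 with a trended and robust prior (17 higher, 23 lower), 150 with array weights (93 higher, 57 lower), and 5 to 82 when each array was left out. The count of 5 forkhead genes at an unadjusted p under 0.05 was 3 over all rows, 9 with array weights, 3 with the replicate block, and 1 to 10 when each array was left out. Each left-out array leaves a group of 2, and which property of an array moves these counts was not tested.

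Some differences near 0 changed sign. With array weights Foxk1 was at 0.0068, Foxj2 at 0.066 and Foxp2 at -0.061, and with centring on the array median Foxj2 was at 0.0042. When each array was left out, Foxk1 ranged from -0.063 to 0.023, Foxj2 from -0.079 to 0.063, Foxo1 from -0.013 to 0.040, Foxn3 from -0.058 to 0.134, Foxp2 from -0.112 to 0.105 and Foxo4 from -0.021 to 0.099. With array weights Klf2 (1.01, limma adjusted p = 0.0462) and Ccr7 (0.48, limma adjusted p = 0.0485) passed; over their alternatives the adjusted p reached 0.717 and 0.722. The number of FOXO targets higher at an unadjusted p under 0.05 was 7 to 13 over the alternatives. The labels do not say whether KO and WT samples with the same replicate number belong together. Their deviations from the group means correlated at 0.104, -0.0043 and 0.275 for numbers 1, 2 and 3 across probe sets. KO replicates 1 and 3 correlated best with the WT replicate of the same number, and KO replicate 2 with WT replicate 1 (0.134). These values do not settle whether the samples were paired, and no pairing was used in the main fit. Signal near the background of the array limits what can be said of the 25 dim members.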
